A study of Mus musculus with 6 samples.

Results

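Igf1, which encodes insulin-like growth factor 1, is described here together with the receptors, adaptors and binding proteins of its signalling system in alveolar macrophages of Rack1 myeloid knockout mice. The set was given as 8 gene symbols, Igf1, Igf1r, Igf2r, Insr, Irs1, Irs2, Igfbp4 and Igfbp7. Of these, 7 had a row among the 26428 genes of the deposited table, and Irs1 was not analysed here. Alveolar macrophages, the resident phagocytes of the air spaces, came from 2 groups of mice with 3 libraries each. The knockout libraries carry the genotype label Rack1{delta}Mye, a myeloid knockout, and the control libraries the label Rack1F/-. The labels do not explain the alleles of the control genotype, name the Cre driver of the knockout, or give age, sex or the number of animals behind a library. All p-values therefore measure the spread between these samples, which may be technical. The symbols were chosen by an earlier comparison of knockout with control in these same libraries. The difference in each of the 7 genes is therefore given as a description, with no p-value.

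Insulin-like growth factor 1 is a secreted hormone that binds a receptor tyrosine kinase, the product of Igf1r, which is a close relative of the insulin receptor encoded by Insr. The activated receptors phosphorylate the adaptor proteins IRS1 and IRS2, which recruit phosphoinositide 3-kinase (PI3K) and so activate the kinase AKT. AKT in turn activates the growth-promoting kinase complex mTORC1 and holds the FOXO transcription factors out of the nucleus. The product of Igf2r has no kinase domain and carries its ligand to lysosomes, and binding proteins such as those of Igfbp4 and Igfbp7 bind the hormones outside the cell. Macrophages are a known source of the hormone in tissues, where it acts on epithelial cells and fibroblasts as well as on the macrophages themselves. RACK1, the scaffold protein whose gene is targeted in the knockout, is known from cell lines to bind the receptor encoded by Igf1r.

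The Igf1 gene (ENSMUSG00000020053) spans bases 87858265 to 87937042 of chromosome 10 (GRCm38, plus strand) in the deposited table, where 8 transcripts are listed for it. The 8 transcripts begin at 8 different positions in the GENCODE M21 annotation of that build, but 2 exons are identical in all of them and coding in all of them. They are shown because together they hold the complete coding sequence of the mature hormone, 70 codons, printed in capitals. Lower case marks coding sequence that is cut from the precursor. A read pair from any of the 8 transcripts therefore stands for a message that encodes the same mature hormone.
Igf1 shared exon A, chr10:87864731-87864887, plus strand: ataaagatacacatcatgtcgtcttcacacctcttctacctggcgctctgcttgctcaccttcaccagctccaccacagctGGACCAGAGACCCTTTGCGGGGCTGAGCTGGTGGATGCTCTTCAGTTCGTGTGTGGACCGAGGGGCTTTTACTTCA
Igf1 shared exon B, chr10:87913619-87913800, plus strand: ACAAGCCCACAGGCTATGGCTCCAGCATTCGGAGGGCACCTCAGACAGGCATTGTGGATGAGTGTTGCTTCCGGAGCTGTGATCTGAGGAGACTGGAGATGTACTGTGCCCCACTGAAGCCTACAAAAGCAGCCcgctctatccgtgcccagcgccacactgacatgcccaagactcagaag

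Estimated counts summed to between 51894849 and 56082536 units in the knockout libraries and between 54871157 and 66163430 units in the control libraries, where a read pair was worth about 4 units. Levels of one gene across libraries are given in CPM, its share of the library total after TMM scaling, and levels of different genes are compared in FPKM, which divides by transcript length. Where a sentence gives 3 values for a group, they follow replicates 1, 2 and 3. Rack1, the targeted gene, measured 38.6, 38.2 and 34.1 CPM in the knockout libraries, against 77.3, 83.5 and 81.1 CPM in the control libraries. The knockout libraries thus kept 0.459 times the control mean of the Rack1 transcript, and protein was not measured here. Of 14797 genes tested, 11.9% passed the test (quasi-likelihood test of edgeR, with Benjamini-Hochberg adjustment at 0.05), 878 higher and 889 lower in knockout. Without TMM, using library totals alone, the scaling moved all log2 fold changes by a median of -0.32 and gave 290 higher and 933 lower. Alveolar macrophage markers were abundant, with the 18 listed genes summing to 106000 to 182000 CPM in knockout and 91200 to 173000 CPM in control, most of it Chil3. Sex-linked transcripts differed among libraries. Xist, the RNA that coats a silenced X, was at 0.74 CPM in knockout replicate 1. It was at 70.6 CPM in control replicate 1 and between 10.4 and 13.8 CPM in the other libraries. Eif2s3y, a Y-linked transcript, was highest in knockout replicate 1, followed by knockout replicate 2 at 2.68 CPM. The remaining libraries lay between 0.356 and 0.681 CPM, with knockout replicate 3 the highest of them. The part of sex in the differences between the groups was not tested.

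Igf1 reached 118.1, 107.0 and 139.0 CPM in the knockout libraries, against 14.99, 12.6 and 13.1 CPM in the control libraries. All 3 knockout libraries lay far above all 3 control libraries, and within each group the libraries lay close together. The means were 121.4 ± 16.2 CPM in knockout and 13.6 ± 1.27 CPM in control (SD, n = 3 each), an 8.96-fold difference. The log2 fold change was 3.16 (standard error 0.146). It was 3.18 without knockout replicate 1, the library with the least Xist and the most Eif2s3y, and 3.24 without knockout replicate 2. Ordered by signed log2 fold change, with the genes highest in knockout first, Igf1 ranked 81 among the 14797 genes tested. Among all genes ordered by FPKM within a library, Igf1 ranked 2275, 2390 and 2075 in the knockout libraries, against 6624, 7107 and 7151 in the control libraries. All 3 knockout ranks were nearer to the top than all 3 control ranks.

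**Figure D1:**
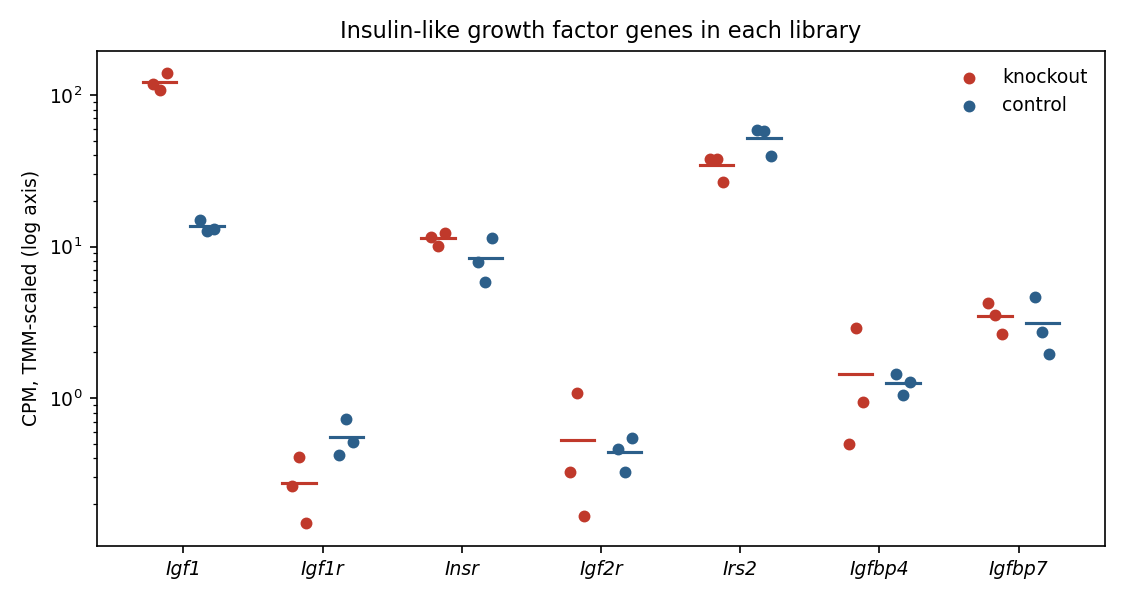
CPM on TMM-scaled library sizes (log axis) of the 7 genes with a row, knockout libraries (red) left of control libraries (blue), 1 point per library and a bar at the group mean. Igf1 lies between 107.0 and 139.0 CPM in knockout and between 12.6 and 14.99 CPM in control, and no other gene of the set shows a gap of that size.

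The antisense gene Igf1os runs over the first 5117 bases of the Igf1 locus on the opposite strand. It was listed at 17, 4 and 9 units in the knockout libraries and at 0 units in all 3 control libraries. These are values of about 1 to 4 read pairs, near the floor of 3 read pairs (12 units) per library, so no fold is given. The labels do not say whether strand was kept in the counting, and without strand reads from Igf1 and Igf1os cannot be told apart. The Igf1os units, 30 in all in knockout, are few beside the 5422, 4433 and 8365 units of Igf1 in the same libraries.

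Genes that mark interstitial macrophages, which are known to express Igf1, also moved. Of 12 listed markers, 4 rose and 0 fell (edgeR quasi-likelihood test, adjusted over all genes), where 5.93% of all genes tested rose and 6.01% fell. The list summed to 241 to 412 CPM in knockout and 157 to 217 CPM in control. At an unadjusted p under 0.05 edgeR gave 4 higher and 0 lower, and DESeq2 called 3 higher and 0 lower. The number higher was 0 without knockout replicate 3, without control replicate 3 and on library totals, and 1 without control replicate 1, without control replicate 2 and with the replicate block. Among them were the complement genes C1qa, C1qb and C1qc, with log2 fold changes of 1.18, 1.22 and 1.03 (edgeR adjusted p = 0.0209, 0.0192 and 0.0431). C1qb was at 67.4, 73.5 and 139.9 CPM in the knockout libraries, against 49.9, 43.2 and 28.0 CPM in the control libraries. Lyve1, a marker of perivascular interstitial macrophages, averaged 1.82 CPM in knockout and 2.30 CPM in control. Cd163, a further marker of resident macrophages, averaged 0.312 CPM in knockout and 0.575 CPM in control. Their log2 fold changes were -0.33 and -0.87 (edgeR adjusted p = 0.813 and 0.677). The part of such cells in the Igf1 difference was not tested. In bulk samples a difference in the number of cells of a type and one in RNA per cell cannot be told apart.

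Receptors for the hormone were scarce in these libraries. Igf1r (chromosome 7, bases 67952827 to 68233668, plus strand), the kinase receptor for insulin-like growth factor 1, was listed at 12, 17 and 9 units in the knockout libraries, against 23, 45 and 44 units in the control libraries. The 3 knockout libraries lay below the 3 control libraries, but with about 10 read pairs in all in knockout and 28 in control. The ratio of the summed read pairs, scaled for depth, was 0.489, with an exact 95% interval of 0.212 to 1.04 that covers counting error only. The fitted log2 fold change of Igf1r was -1.03 (standard error 0.696).

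Insr (chromosome 8, bases 3122061 to 3279617, minus strand), the insulin receptor gene, was the better detected receptor. It was at 11.6, 10.1 and 12.3 CPM in the knockout libraries, against 7.91, 5.82 and 11.4 CPM in the control libraries. The groups overlapped, because control replicate 3 stood above knockout replicate 2. The log2 fold change was 0.43 (standard error 0.228), and it ran from 0.23 without control replicate 2 to 0.72 without control replicate 3, and was 0.10 on library totals. In FPKM, Insr averaged 0.707 ± 0.187 in knockout and 0.662 ± 0.315 in control (SD, n = 3 each), against 0.0123 ± 0.00551 and 0.0340 ± 0.0113 for Igf1r in the same groups. Insr was above Igf1r in each of the 6 libraries on this length-corrected scale.

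Igf2r (chromosome 17, bases 12682406 to 12769664, minus strand), which encodes the receptor that clears insulin-like growth factor 2 and also sorts lysosomal enzymes, was near the floor as well. It was listed at 15, 45 and 10 units in the knockout libraries, against 25, 20 and 47 units in the control libraries. Knockout replicate 2 was high and the other two knockout libraries low, and the groups overlapped. The summed read pairs gave a ratio of 1.07, with an exact 95% interval of 0.545 to 2.08 for counting error only. The fitted log2 fold change was 0.23 (standard error 0.769), and its sign turned on library totals (-0.21), with the replicate block (-0.16) and when knockout replicate 2 was left out (-0.86). Airn, an antisense RNA known to silence the paternal copy of Igf2r, was listed at 13 units in knockout replicate 2 and at 0 to 4 units in the other 5 libraries.

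Irs2 (chromosome 8, bases 10984681 to 11008458, minus strand), the adaptor between the receptors and PI3K, was the most abundant gene of the set per length in control and second to Igf1 in knockout. It was at 38.0, 38.1 and 26.7 CPM in the knockout libraries, against 58.6, 57.4 and 39.8 CPM in the control libraries. Each knockout library lay below each control library, narrowly so for control replicate 3. The means were 34.3 ± 6.53 CPM in knockout and 51.95 ± 10.5 CPM in control (SD, n = 3 each), with a log2 fold change of -0.60 (standard error 0.184). The value kept its sign under all 15 alternatives run, from -0.93 on library totals to -0.45 without knockout replicate 3.

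The Irs2 promoter is shown because it is the best known point at which this pathway acts back on its own adaptor. In hepatocytes FOXO factors bind an insulin response element there and raise Irs2 transcription, and factors such as TFE3 bind the E-box beside it. Capitals mark the E-box, whose letters CACGTG read the same on both strands. They also mark the core of the insulin response element, with the letters TGTTTTG. Both motifs were searched on both strands and were chosen after this sequence and the difference in Irs2 were known. Each occurred 1 time, and they did not overlap. The window is the 250 bases before the RefSeq start of Irs2, which lies upstream of the gene start in the deposited table. In the window of that length before each RefSeq start, the E-box occurred in 6.86% and the insulin response element core in 6.38% of 27025 genes. The printed window also lies within 9530052E02Rik, a gene on the plus strand. It was listed at 0 to 3 units in knockout and 0 to 11 units in control, below the floor of 12 units per library. The sequence is from RefSeq (GRCm38.p6), and a match of letters does not show that a factor binds in these cells.
Irs2 promoter, chr8:11008930-11009179, minus strand: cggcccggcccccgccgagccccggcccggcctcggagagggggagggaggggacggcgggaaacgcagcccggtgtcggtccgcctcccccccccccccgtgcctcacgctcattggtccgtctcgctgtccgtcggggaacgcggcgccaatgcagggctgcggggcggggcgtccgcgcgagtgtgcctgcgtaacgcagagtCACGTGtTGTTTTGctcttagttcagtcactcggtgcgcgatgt

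Igfbp7 (chromosome 5, bases 77349240 to 77408041, minus strand), which encodes a binding protein of low affinity for these hormones, showed no separation of the groups. It was at 4.23, 3.52 and 2.64 CPM in the knockout libraries, against 4.64, 2.74 and 1.95 CPM in the control libraries. The highest library of all 6 was a control and so was the lowest. The log2 fold change was 0.16 (standard error 0.337), and its sign was negative on library totals (-0.14), with both limma fits (-0.08 and -0.10) and without control replicate 3 (-0.10) or knockout replicate 1 (-0.01). The last 85 bases of the Igfbp7 locus lie over the end of Polr2b on the other strand, a gene with 444 to 543 units in knockout and 551 to 967 in control, so some reads there cannot be assigned without strand.

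Igfbp4 (chromosome 11, bases 99041244 to 99054392, plus strand), which encodes a binding protein that holds the hormone away from its receptor, varied more within knockout than between the groups. It was at 0.501, 2.90 and 0.947 CPM in the knockout libraries, against 1.45, 1.05 and 1.28 CPM in the control libraries. Knockout replicate 2 was above all control libraries and the other two knockout libraries were below them. The log2 fold change was 0.19 (standard error 0.569), and its sign turned on library totals (-0.18), with the replicate block (-0.15) and when knockout replicate 2 was left out (-0.80). Knockout replicate 2 was the highest knockout library for Igf2r as well. Igfbp4 and Igfbp7 are known to be expressed by stromal and endothelial cells, whose listed markers were low. The 10 fibroblast markers summed to 71.1 to 80.4 CPM in knockout and 51.4 to 82.1 CPM in control, nearly all of it Dcn, while Col1a1 averaged 0.206 and 0.810 CPM in these groups and Pdgfra 0.260 and 0.398 CPM. The 10 endothelial markers, of which 8 had a row, summed to 6.6 to 8.21 CPM in knockout and 8.27 to 10.9 CPM in control. Most of each sum was Vwf. Kdr, Cldn5 and Tie1 were at 0 in every knockout library and averaged only 0.091, 0.064 and 0.016 CPM in control. Cdh5 and Esam went the other way, averaging 0.054 and 0.560 CPM in knockout and 0.019 and 0.405 CPM in control. With edgeR 0 genes of either list passed, at an unadjusted p under 0.05 1 fibroblast gene was lower, and DESeq2 called 0, and the part of such cells in the Igfbp4 and Igfbp7 values was not tested.

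Of the 7 genes with a row, 1, Igf1, was among the 11.9% of all genes called by edgeR, which describes the choice of the symbols and is no test of them. Igf1 was the 1 gene with all 3 knockout libraries above all 3 control libraries, a pattern of 15.3% of tested genes. Igf1r and Irs2 had all knockout libraries below all control libraries, a pattern of 15.9% of tested genes. Since the symbols were picked with this comparison known, nothing is read from these counts. All 7 genes passed the filter on low counts, although Igf1r and Igf2r did so with few read pairs.

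The order of the genes per length differed between the groups at its top. In knockout Igf1 came first by mean FPKM (10.6 ± 3.33), then Irs2 (4.51 ± 0.154), Igfbp7 (2.38 ± 0.264), Insr (0.707 ± 0.187), Igfbp4 (0.266 ± 0.209), Igf2r (0.0437 ± 0.0379) and Igf1r (0.0123 ± 0.00551), with SD over 3 libraries. In control Irs2 came first (8.58 ± 0.913), then Igfbp7 (2.61 ± 0.778), Igf1 (1.44 ± 0.158), Insr (0.662 ± 0.315), Igfbp4 (0.301 ± 0.0527), Igf2r (0.0506 ± 0.0192) and Igf1r (0.0340 ± 0.0113). Of the neighbours in these orders, the ranges of mean ± SD overlapped for Igf2r and Igf1r in both groups, for Igfbp4 and Igf2r in knockout and for Insr and Igfbp4 in control. Within a library, Igf1 was at 1.98, 1.79 and 3.32 times the FPKM of Irs2 in the knockout libraries, against 0.163, 0.139 and 0.209 times in the control libraries. The ligand transcript thus exceeded the adaptor transcript in every knockout library and in no control library.

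**Figure D2:**
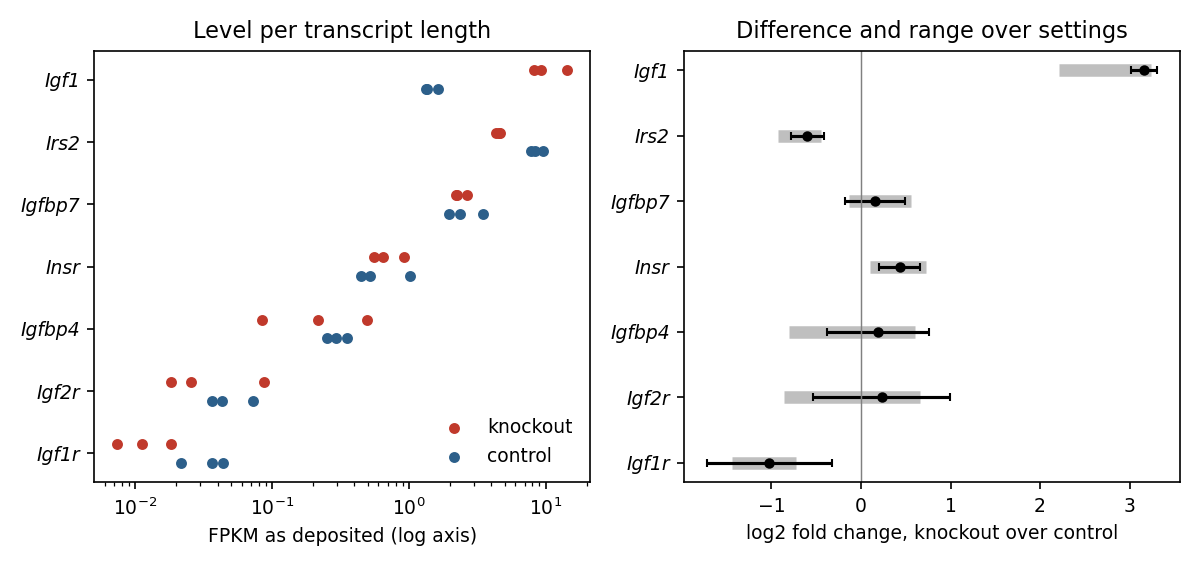
Left, FPKM as deposited (log axis) in each knockout (red, above) and control (blue, below) library, and right, the log2 fold change of knockout over control with its standard error (points and bars) and its range over all settings run (grey). Igf1 lies at 3.16 and keeps its direction in every setting, Irs2 and Igf1r stay below 0, and the ranges of Igfbp7, Igfbp4 and Igf2r cross 0.

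Beyond these genes, 6 lists of the pathway held 141 further genes, of which 117 were tested, 10 were higher and 10 were lower in knockout (edgeR quasi-likelihood test, adjusted over all genes). That is 8.55% higher and 8.55% lower, against 5.93% and 6.01% of all genes tested. The 10 lower genes include Rack1, the targeted gene, whose fall comes with the design. The 117 genes had a median of -0.0047 on the log2 scale, beside 0.0088 over all genes tested. On library totals 3 were higher and 9 lower, and with limma on log2(FPKM + 1) 2 were higher and 10 lower, so the even split depends on the scaling. Igf2bp3, Pdk4 and Gadd45a were the 3 higher genes on library totals. No called gene changed sign under the alternatives that gave it a value. Igf2bp2, Igf2bp3 and Inppl1 had none in either limma fit. Without control replicate 1 they were 4 higher and 3 lower, and 5 higher and 4 lower without control replicate 2. They were 6 and 6 without knockout replicate 2, and 6 higher without knockout replicate 3.

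Among further ligands, receptors and binding proteins, 8 of 22 listed genes were tested. Of these, 1 rose and 1 fell (12.5% each, against 5.93% and 6.01% of all genes tested), and 6 did not pass. Both that moved encode RNA-binding proteins named for their binding to the Igf2 message. Igf2bp3 was at 5.34, 3.60 and 5.17 CPM in the knockout libraries, against 0.294, 0.389 and 0.315 CPM in the control libraries, a log2 fold change of 3.81 (standard error 0.323, edgeR adjusted p = 6.96e-05). Igf2bp2 averaged 2.38 ± 0.417 CPM in knockout and 5.28 ± 1.08 CPM in control (SD, n = 3 each), with a log2 fold change of -1.14 (edgeR adjusted p = 0.0147). Its call was lost without knockout replicate 2, control replicate 1 or control replicate 2 (edgeR adjusted p = 0.0543, 0.0550 and 0.0685). Igf2 itself, the second growth factor of the family, averaged 0.0387 CPM in knockout and 0.0245 CPM in control and was not tested, and the insulin genes were not analysed here. Igfbp6, a further binding protein gene, averaged 70.7 ± 5.003 CPM in knockout and 61.4 ± 14.04 CPM in control (SD, n = 3 each), with a log2 fold change of 0.20 (edgeR adjusted p = 0.501).

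Among adaptors and brakes of the receptors, 1 of 24 tested genes rose and 4 fell (4.17% and 16.7%, against 5.93% and 6.01% of all genes tested). Rack1 is one of the 4 and is the targeted gene. Ptpn1, a phosphatase gene whose product removes phosphate from the insulin receptor, fell to 133.4 ± 12.8 CPM in knockout, against 230.1 ± 23.6 CPM in control (SD, n = 3 each), a log2 fold change of -0.79 (edgeR adjusted p = 0.00436). Socs2, a feedback inhibitor of growth hormone signalling, averaged 12.9 ± 2.61 CPM in knockout and 22.9 ± 1.34 CPM in control (SD, n = 3 each), a log2 fold change of -0.83 (edgeR adjusted p = 0.00941, and 0.0514 without control replicate 1). Enpp1, an ectonucleotidase that damps the insulin receptor, was at -0.58 (edgeR adjusted p = 0.0391), a call lost when any one of the 6 libraries was left out, with adjusted p between 0.0530 and 0.119. Library totals, the replicate block and both limma fits lost it too (adjusted p = 0.0565 to 0.0809). Mdm2, a ubiquitin ligase gene and p53 target, rose to 20.4 ± 4.34 CPM in knockout, against 10.9 ± 1.67 CPM in control (SD, n = 3 each), a log2 fold change of 0.90 (edgeR adjusted p = 0.0122). That call was lost without knockout replicate 1 or control replicate 1 (edgeR adjusted p = 0.0545 and 0.0653). It was also lost on library totals, where the log2 fold change was 0.56 (edgeR adjusted p = 0.284), and with both limma fits (limma adjusted p = 0.215 and 0.209). The general adaptor genes Shc1 and Grb2 were at 0.20 and 0.33 (edgeR adjusted p = 0.383 and 0.102).

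Among PI3K and AKT genes, 3 of 25 tested genes rose and 2 fell (12% and 8%, against 5.93% and 6.01% of all genes tested). Akt1, the kinase gene itself, fell to 105.7 ± 8.93 CPM in knockout, against 146.9 ± 3.79 CPM in control (SD, n = 3 each), a log2 fold change of -0.47 (edgeR adjusted p = 0.0251). Leaving out any single library other than knockout replicate 3 lost that call, with adjusted p of 0.0571 to 0.0913. Trib3, a pseudokinase gene induced by stress whose product binds AKT, rose to 6.39 ± 1.54 CPM in knockout, against 2.76 ± 0.476 CPM in control (SD, n = 3 each), a log2 fold change of 1.21 (edgeR adjusted p = 0.0101). It kept its call without any single library, but lost it on library totals and with both limma fits (highest adjusted p 0.0809). Inppl1, a lipid phosphatase gene that opposes PI3K, was at 1.07, and the PI3K regulatory subunit genes Pik3r5 and Pik3r6 were at 0.50 and -0.77 (edgeR adjusted p = 0.0351, 0.0261 and 0.0420). Each of these 3 calls was lost in 5 of 6 fits with 1 library left out; the exception was knockout replicate 2 for Inppl1 and knockout replicate 3 for Pik3r5 and Pik3r6. The highest adjusted p among those fits was 0.111 for Inppl1, 0.0941 for Pik3r5 and 0.124 for Pik3r6. On library totals Inppl1 was at 0.78, Pik3r5 at 0.18 and Pik3r6 at -1.05, all without a call (edgeR adjusted p = 0.203, 0.717 and 0.0686). Pik3r5 was not called by limma either (limma adjusted p = 0.686 and 0.667) nor without the filter (edgeR adjusted p = 0.0565), and Inppl1 not with the replicate block (edgeR adjusted p = 0.0692). The catalytic subunit genes Pik3ca, Pik3cb, Pik3cd and Pik3cg lay between -0.21 and 0.02 (edgeR adjusted p = 0.435 or above).

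The 24 mTORC1 branch genes held 0 calls in either direction with edgeR. At an unadjusted p under 0.05 there were 1 higher and 2 lower, DESeq2 called 0 higher and 1 lower, and limma on log2(FPKM + 1) called 0 of 14. With median-of-ratios factors, a minimum count of 50 or counts divided by 4, edgeR called 1 lower, and without control replicate 3 it called 1 higher. Mtor, Rptor, Rictor and Mlst8, which encode the core of the complexes, had log2 fold changes of 0.11, 0.22, -0.0020 and 0.41 (edgeR adjusted p = 0.898, 0.705, 0.998 and 0.200).

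In the FOXO branch 3 of 17 tested genes rose (17.6%, against 5.93% of all genes tested) and 0 fell. At an unadjusted p under 0.05 edgeR gave 1 lower, and DESeq2 called 0 lower. The number higher was 2 with any 1 library left out, on library totals, without the filter, with the replicate block and with both limma fits. Pdk4, which encodes a kinase that holds glucose carbon out of the mitochondrial citrate cycle, was at 6.38, 7.44 and 11.2 CPM in the knockout libraries, against 0.972, 1.12 and 0.991 CPM in the control libraries. Its log2 fold change was 3.02 (standard error 0.266, edgeR adjusted p = 8.99e-05). Gadd45a, a growth arrest gene that p53 also controls, rose to 5.53 ± 0.889 CPM in knockout, against 1.36 ± 0.400 CPM in control (SD, n = 3 each), a log2 fold change of 2.03 (edgeR adjusted p = 0.00162). Fbxo32, a ubiquitin ligase gene known from muscle wasting, was at 0.56 (edgeR adjusted p = 0.0446), a call lost when any one library was left out, with adjusted p between 0.0582 and 0.141. On library totals it was at 0.24 (edgeR adjusted p = 0.641), and limma, the fit without a filter and the replicate block did not call it (adjusted p = 0.0689 to 0.635). The factor genes Foxo1 and Foxo3 were at 0.41 and 0.85 (edgeR adjusted p = 0.261 and 0.253). The list was drawn from FOXO targets known in other tissues, and Irs2 and Insr, which also count among such targets, were at -0.60 and 0.43.

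**Figure D3:**
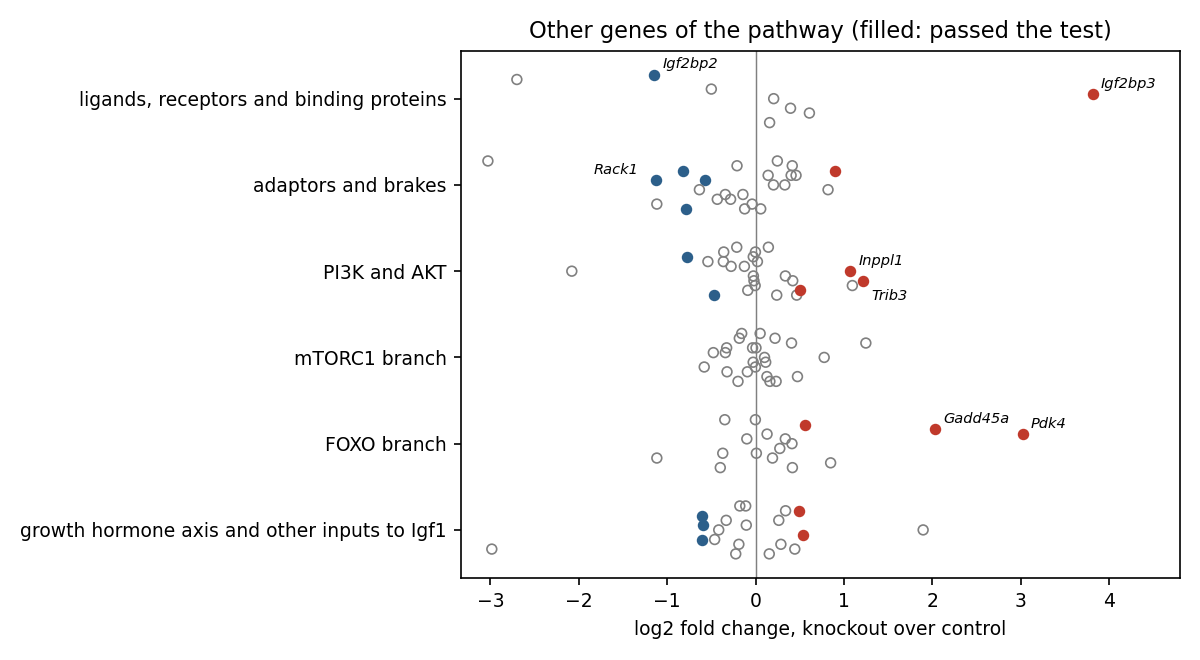
Log2 fold change of knockout over control for the tested genes of the 6 pathway lists, 1 point per gene, filled where the edgeR test was passed (red higher, blue lower) and open otherwise. The called genes farthest to the right are Igf2bp3 at 3.81, Pdk4 at 3.02 and Gadd45a at 2.03, and the mTORC1 branch holds no filled point.

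Of 20 tested genes for inputs to Igf1 transcription, 2 rose and 3 fell (10% and 15%, against 5.93% and 6.01% of all genes tested). Csf1r, the receptor gene for a cytokine that macrophages depend on, fell to 41.9 ± 1.33 CPM in knockout, against 63.3 ± 7.96 CPM in control (SD, n = 3 each), a log2 fold change of -0.60 (edgeR adjusted p = 0.0122). Csf2rb, a receptor chain for the cytokine GM-CSF, was at 0.49, Il4ra, a receptor chain for interleukins 4 and 13, at 0.54, Il13ra1, its partner chain, at -0.61 and the transcription factor gene Cebpd at -0.60 (edgeR adjusted p = 0.0249, 0.0474, 0.0152 and 0.0134). Csf2rb lost its call without knockout replicates 2 or 3 or control replicates 1 or 2 (edgeR adjusted p = 0.0776 to 0.105), and Il4ra without any single library other than knockout replicate 1 (0.0928 to 0.182). On library totals Csf2rb was at 0.18 and Il4ra at 0.24 (edgeR adjusted p = 0.699 and 0.669), and limma called neither (limma adjusted p = 0.660 to 0.668). Median-of-ratios factors, no filter and the replicate block also lost Il4ra (edgeR adjusted p = 0.0505, 0.0519 and 0.0541). Il13ra1 lost it without knockout replicate 3 or control replicates 1 or 2 (edgeR adjusted p = 0.0543 to 0.0660), and Cebpd without knockout replicates 1 or 2 or control replicates 1 or 2 (0.0536 to 0.0571). Ghr, the growth hormone receptor gene, was at 1.31, 5.07 and 4.802 CPM in the knockout libraries, against 1.56, 1.05 and 0.420 CPM in the control libraries. Knockout replicate 1 lay within the control range, and the log2 fold change of 1.90 did not pass the test (edgeR adjusted p = 0.0522). Stat5a and Stat5b, which carry the growth hormone signal to Igf1 in liver, were at -0.10 and -0.19 (edgeR adjusted p = 0.7495 and 0.501).

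The genes whose profile over the 6 libraries was closest to that of Igf1 were 2200002D01Rik, Fam20c, Enpp5, Mfge8 and Pdk4. Closeness was the root mean square difference of log2 CPM after each gene was centred on its own mean, and it ran from 0.178 to 0.235 among 7555 genes with at least 5 CPM in the higher group. Mfge8, which encodes a secreted bridge between apoptotic cells and phagocytes, was at 119.3, 137.5 and 137.2 CPM in the knockout libraries, against 14.9, 14.8 and 19.8 CPM in the control libraries. Fam20c, which encodes a kinase of secreted proteins, averaged 25.5 ± 4.802 CPM in knockout and 3.12 ± 0.764 CPM in control (SD, n = 3 each). Enpp5, of the ectonucleotidase family, averaged 9.07 ± 1.43 CPM in knockout and 1.13 ± 0.361 CPM in control (SD, n = 3 each). 2200002D01Rik averaged 9.34 ± 1.42 CPM in knockout and 1.02 ± 0.0794 CPM in control (SD, n = 3 each). These 5 were selected for their likeness, so no test is attached, and with 2 groups of 3 libraries the likeness rests mostly on the size of the group difference.

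**Figure D4:**
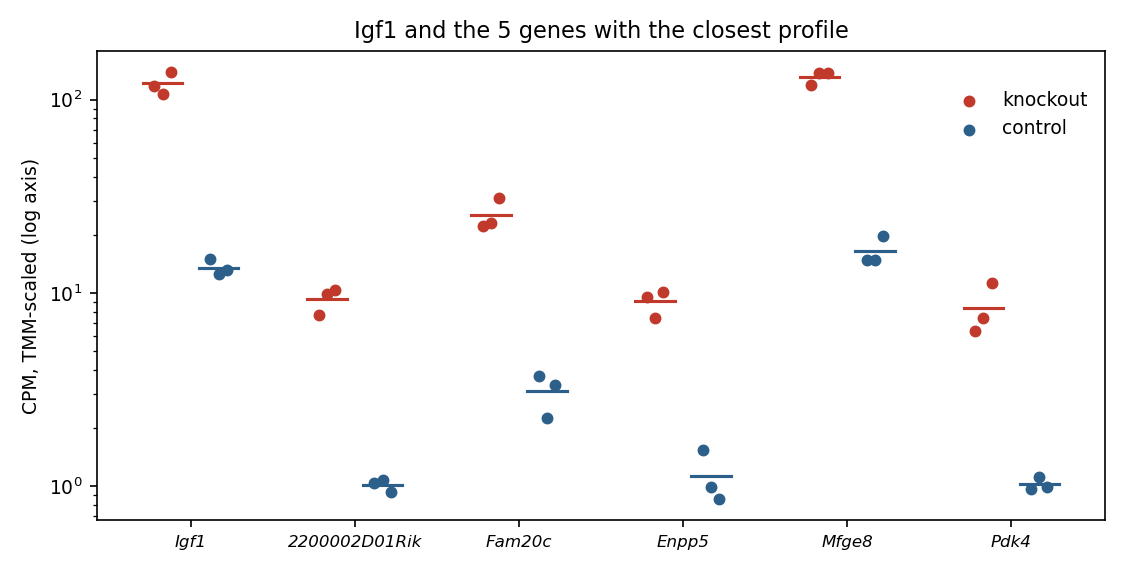
CPM on TMM-scaled library sizes (log axis) of Igf1 and the 5 genes with the closest profile, knockout libraries (red) left of control libraries (blue), with a bar at the group mean. Each gene is about as far apart between groups as Igf1, with Mfge8 averaging 131.3 CPM in knockout and 16.5 CPM in control.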

How the data were processed

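TRIzol extraction and NEBNext Ultra library preparation are given in the labels' protocols. Of software, the submitters' processing notes list HISAT2, StringTie, cutadapt, FastQC, edgeR and DESeq2, without roles, and the build GRCm38. For every gene the table as deposited gives each library's estimated count and its FPKM (per the file headers). The estimated count made by the authors before deposit is a whole number that follows FPKM times length in genes with 1 transcript, and was therefore read as an estimate, about 4 units to a read pair.

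Counts were filtered with edgeR's filterByExpr, scaled by TMM and compared by edgeR's quasi-likelihood test without covariates, adjusted over all genes tested at 0.05. Dividing each log2 fold change by the root of its F gave the standard error. CPM used TMM-scaled library sizes, and likeness to Igf1 used log2 CPM with a prior count of 2. Members, lists, motifs and tests were chosen with earlier results of these data known. Named are all members, called genes of the pathway lists and the first 4 of each list in part. Also named are the 5 genes most like Igf1, some of the genes that overlap a member, and Rack1. Igfbp6, Xist, Eif2s3y and single marker genes were named after their values were seen. Markers of 11 cell types were listed, and those not given in the report stand in the closing section. Floors and intervals cover counting error only. The test was checked on simulated counts. It recovered 65% of 2-fold and 93% of 4-fold changes, and 15 of its 173 calls were false. Versions were edgeR 4.0.16, DESeq2 1.42.0 and limma 3.58.1 under R 4.3.3, with Python 3.11.15 and GENCODE M21. Alternatives were limma on log2(FPKM + 1) and log2(FPKM + 0.1), DESeq2, other scalings and filters, counts divided by 4, each library left out in turn, and a replicate block.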

Additional observations from a re-analysis of the deposited data

How the results depend on the processing

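The log2 fold change of Igf1 was positive under all 15 alternatives. The limma fits gave 2.21 at a pseudocount of 1 and 2.76 at 0.1. A pseudocount understates changes of low genes, and these fits took FPKM as deposited, without TMM. Library totals, also without TMM, gave 2.87, and the values ran over 3.05 to 3.24 with 1 library left out. Counts over all genes were 239, 230 and 290 higher and 1150, 1120 and 933 lower with these 3 settings. With 1 library left out they were 455 to 691 higher and 372 to 565 lower, with fewer samples. Pathway counts were 2, 2 and 3 higher with the same 3 settings, and 4 to 7 higher and 3 to 9 lower with 1 library left out. The replicate block gave 770 higher and 699 lower genes, 8 and 10 pathway genes and 3.16 for Igf1. Libraries that share a number deviated with r of 0.0311, -0.0385 and 0.00668, so the numbers were not read as pairs, and knockout replicates 2 and 3 did not correlate best with their own numbers. Of the 20 pathway calls, 7 were kept whichever library was left out and 6 under every alternative that gave a value. Both counts include Rack1, the targeted gene. Igf2bp3, 1 of the 6, has no value with limma. Igf1r, Igf2r, Igfbp4, Insr, Igf2bp2, Igf2bp3 and Inppl1 fell below the limma filter, and Igf1r and Igf2r below a minimum count of 50 and the filter on counts divided by 4, so no value exists there. Igf2r and Igfbp4 were at -0.16 and -0.15 with the replicate block and at -0.21 and -0.18 on library totals. Depth limits Igf1r and Igf2r, with 10 and 18 read pairs in knockout.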

Other observations

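Markers of other cell types were at low levels in all libraries. Monocyte markers summed to 28.7 to 50.5 CPM in knockout and 45.6 to 56.2 CPM in control, with Fn1 the 1 gene of 8 that fell. Neutrophil markers summed to 99.0 to 103 CPM in knockout and 28.4 to 44.9 CPM in control, with 1 of 7 tested genes higher, Cxcr2, and 3 lower. Most of the difference in the sum was Retnlg, at 63.2, 51.3 and 44.1 CPM in the knockout libraries, against 0, 0.243 and 11.9 CPM in the control libraries (edgeR adjusted p = 0.0680). Lung epithelial markers summed to 49.8 to 56.3 CPM in knockout and 59.2 to 96.7 CPM in control, with 2 of 9 tested genes higher, the surfactant genes Sftpc and Sftpa1, and 2 lower, Epcam and Krt8. Smooth muscle markers summed to 3.14 to 4.15 CPM in knockout and 5.70 to 11.4 CPM in control, with 3 of 5 tested genes lower. Lymphocyte, dendritic cell and liver cell lists had 0 called genes with edgeR, 0 at an unadjusted p under 0.05 and 0 with DESeq2, and summed to at most 22.5, 27.8 and 19.5 CPM in knockout and 20.4, 23.9 and 9.25 CPM in control. The alveolar macrophage list had 4 of 18 genes higher and 4 lower, where 5.93% and 6.01% of all genes tested were called. Marco, Car4, Abcg1 and Lpl were higher, and Siglecf, Fabp1, Krt79 and Cidec lower. With each limma fit 2 were higher and 7 lower, on library totals 3 and 6, and with DESeq2 7 and 5. Without knockout replicate 2 they were 2 and 2. Calls with no method named are from the edgeR test adjusted over all genes.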
